A study of Mus musculus with 24 samples.

Results

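The DNA replication licensing and fork genes were read in the left ventricle of newborn mice that had lost Rhot1 and Rhot2, genes of the Miro GTPases that tie mitochondria to the cytoskeleton, in cardiomyocytes, and in controls. The members were chosen by symbol from the raw count table: Mcm2, Mcm3, Mcm4, Mcm5, Mcm6, Mcm7, Pcna, Cdc45, Gins1 and Cdc6. All 10 were among the 39396 genes of the table, and all 10 passed the filter on low counts that left 17352 genes for the tests. The groups were DKO labelled day 7, control labelled day 7, DKO labelled day 1 and control labelled day 1, with 6 libraries in each of the 4 groups and 24 in all. Per the labels, DKO means that Rhot1 and Rhot2 were deleted before birth and selectively in cardiomyocytes. The allele that drove the deletion, and what the controls carried, are not given in the labels. Polyadenylated RNA was taken from whole left ventricle, per the labels, and cells other than cardiomyocytes contributed to it. Whether the 6 libraries of a group came from 6 different animals is not stated, so the p-values speak only of variation among libraries, which may be technical. In such tissue, fewer cells of a type and less RNA per cell cannot be told apart.

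Before a cell copies its DNA, the origin recognition complex and the loader proteins Cdc6 and Cdt1 place rings of Mcm2 to Mcm7 on chromatin, a step called licensing. In S phase, Cdc45 and the GINS complex join each ring and turn it into the helicase that opens the fork. PCNA is the sliding clamp that holds the polymerases on DNA. Genes of this machinery are textbook targets of E2F transcription factors, and mouse cardiomyocytes are known to leave the cell cycle in the first days after birth.

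For this reason the promoters of the members were read in RefSeq sequence on GRCm38.p6. The windows of 300 bases ran from 250 bases before to 50 bases after a start of the gene as given there. The table held promoters of 8 of the 10 members, without Mcm4 and Gins1. Letters of an E2F site (TTTCCCGC, TTTCGCGC, TTTGGCGC or TTTGCCGC, on either strand, overlaps allowed) stood in the promoters of 5 members: Mcm3, Mcm5, Mcm6, Mcm7 and Cdc6. Mcm7 had 2 promoters in the table, and the other one, further into the gene, held no such letters, so 5 of 9 promoters of members held them. Of all 32851 promoters of the table, 2.27% did. The letters CCAAT, on either strand, stood in 7 members, all but Cdc6 of those read, against 37.4% of all promoters. Shown here are the pair of members that moved most closely together across libraries once group means were subtracted, Mcm5 and Mcm6, and the pair that moved least together, Mcm7 and Cdc6. Capitals mark the E2F letters.
Mcm5 (GRCm38.p6, chr8:75109259-75109558, plus strand): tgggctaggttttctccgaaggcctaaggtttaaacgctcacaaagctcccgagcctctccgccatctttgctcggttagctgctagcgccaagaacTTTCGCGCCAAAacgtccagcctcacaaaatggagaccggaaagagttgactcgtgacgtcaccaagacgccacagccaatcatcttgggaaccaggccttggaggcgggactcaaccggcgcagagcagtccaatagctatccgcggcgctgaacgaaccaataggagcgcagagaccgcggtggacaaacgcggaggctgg
Mcm6 (GRCm38.p6, chr1:128359656-128359955, minus strand): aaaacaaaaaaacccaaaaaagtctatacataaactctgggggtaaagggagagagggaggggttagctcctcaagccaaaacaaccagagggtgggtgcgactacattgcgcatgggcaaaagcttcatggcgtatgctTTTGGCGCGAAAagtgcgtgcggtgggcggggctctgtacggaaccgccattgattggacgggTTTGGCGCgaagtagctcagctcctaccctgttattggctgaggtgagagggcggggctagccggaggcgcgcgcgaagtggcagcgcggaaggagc
Mcm7 (GRCm38.p6, chr5:138171834-138172133, minus strand): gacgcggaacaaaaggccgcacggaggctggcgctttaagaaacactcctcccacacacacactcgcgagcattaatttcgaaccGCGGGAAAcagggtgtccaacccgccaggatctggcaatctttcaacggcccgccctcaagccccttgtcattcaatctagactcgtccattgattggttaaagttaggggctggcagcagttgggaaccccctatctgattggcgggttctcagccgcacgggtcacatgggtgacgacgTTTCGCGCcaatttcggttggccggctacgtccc
Cdc6 (GRCm38.p6, chr11:98907901-98908200, plus strand): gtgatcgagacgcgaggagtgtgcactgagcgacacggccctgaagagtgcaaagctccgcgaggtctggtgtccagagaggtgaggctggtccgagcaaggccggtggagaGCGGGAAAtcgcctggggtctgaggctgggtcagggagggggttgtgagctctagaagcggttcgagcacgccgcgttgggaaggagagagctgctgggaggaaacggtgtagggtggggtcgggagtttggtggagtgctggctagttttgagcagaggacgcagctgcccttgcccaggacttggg
In Mcm5 the match began 153 bases before the start and overlapped another on the other strand, and in Mcm6 a like overlapping pair began 110 bases before the start, with another match 47 bases before it. In the Mcm7 promoter shown the matches began 165 bases before and 17 bases after the start, and the single match of Cdc6 began 138 bases before it. Distances are from the start used for each window. The windows shown of Mcm7 and Cdc6 lie wholly inside the spans of these genes in GENCODE M21, so those starts are not the outermost ones. These letters are a description of the windows and not of bound sites.

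On GRCm38 (GENCODE M21, matched by gene identifier) the members are protein-coding genes on 7 chromosomes. Exonic bases inside the span of another gene were 0 for 8 members, and 14.8% for Mcm7 (Ap4m1, Cops6 and the microRNA genes Mir25 and Mir93) and 5.96% for Cdc45 (Ufd1). Counts of these 2 genes may therefore be incomplete, or may hold reads of the overlapping genes. Pcna is uncertain for another reason. Its processed pseudogene Pcna-ps2 took 36.0 to 44.3% as many counts as Pcna itself in every library, and how reads that match both were treated is not given.

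Some facts of the whole series touch every result. Rhot1 was at 132 ± 11 CPM (counts scaled by library size and TMM factor, mean ± SD, n = 6) in DKO and 155 ± 7.4 CPM in controls labelled day 7 (log2 fold change −0.25 ± 0.06 SE, edgeR adjusted p = 0.087), and at 119 ± 9.9 CPM in DKO and 158 ± 17 CPM in controls labelled day 1 (−0.42 ± 0.08, edgeR adjusted p = 0.0011), while Rhot2 had 0 counts in all 24 libraries, controls included, and checks nothing. Which exons were deleted is not given, so Rhot1 counted over the whole gene is a partial check. Total counts ran from 22345262 to 30453874 in DKO and from 17334498 to 27272982 in controls labelled day 7, and from 30318018 to 37967935 in DKO and from 36145645 to 45806171 in controls labelled day 1. The age labels went against the direction in which the heart is known to mature: the summed level of 10 genes known to fall with age was 12329 to 16868 CPM in DKO labelled day 7 and 11416 to 20036 CPM in controls labelled day 7, against 3528 to 4651 CPM in DKO labelled day 1 and 3294 to 5252 CPM in controls labelled day 1. Of these 10 genes, 10 were higher at labelled day 7 in DKO and 10 in controls, and of 9 genes known to rise with age, 8 were lower in DKO and 9 in controls. The labels are used here as given, and no result is a statement on the direction of age. The Y-linked gene Eif2s3y was over 10 CPM in 2 of 6 DKO and 2 of 6 control libraries labelled day 7, and in all 12 libraries labelled day 1, so sex and labelled age are partly confounded. The 2 DKO libraries were m1124 and m1128. These also had the most of the atrial transcript Myl7 among DKO labelled day 7 (1043 and 548 CPM), so Eif2s3y and high Myl7 cannot be told apart there. Xist, a marker of female cells, was at 0 CPM in all 24 libraries, so sex was read from Eif2s3y alone. Cardiomyocyte markers (8 genes, highest Myh6) summed to 44169 to 61416 CPM over the 24 libraries.

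The first comparison asks whether the replication genes differed between DKO and control ventricles of labelled day 7. Of the 10 members, 0 passed the threshold of an adjusted p of 0.05 (edgeR quasi-likelihood test with Benjamini-Hochberg adjustment over 17352 genes), and 1 had an unadjusted p under 0.05. DESeq2 and limma-voom also called 0. Over all genes tested, 0.686% were higher and 0.334% lower in DKO, so a count of 0 among 10 is near the background. The log2 fold changes ran from −0.34 for Gins1 to −0.00 for Mcm4, with a median of −0.16 beside −0.01 over all genes, and 9 of the 10 were below 0 under every scaling tried, while Mcm4 was at 0.01 with DESeq2 and with upper-quartile scaling. Leaving out 1 library moved the median to −0.28 without DKO m1092, −0.09 without DKO m1124 and −0.08 without DKO m1026. The members move together from library to library, so these 10 signs are not 10 separate observations.

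Among the helicase rings, Mcm2 averaged 55.4 ± 17 CPM in DKO and 63.5 ± 10 CPM in controls labelled day 7 (SD, n = 6 each). The log2 fold change was −0.21 with a 95% interval from −0.57 to 0.15, and 5 of 6 DKO libraries lay below the control mean. Mcm6, the most abundant ring subunit per length, averaged 70.6 ± 18 CPM in DKO and 77.6 ± 12 CPM in controls. Mcm5 averaged 30.1 ± 8.4 CPM in DKO and 34.1 ± 6.0 CPM in controls, and Mcm7 47.5 ± 9.2 CPM in DKO and 53.0 ± 8.5 CPM in controls. Mcm3 and Mcm4 were closer still. Mcm3 averaged 38.3 ± 10 CPM in DKO and 39.5 ± 7.7 CPM in controls, and Mcm4 31.9 ± 6.8 CPM in DKO and 31.6 ± 5.5 CPM in controls. For each of the 6 subunits the 95% interval of the log2 fold change included 0, and its lowest bound was −0.57, for Mcm2.

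Gins1, which codes for the PSF1 subunit of GINS, had the largest of the differences. Its lowest, median and highest values were 4.13, 5.63 and 6.74 CPM in DKO libraries, against 5.25, 7.21 and 7.49 CPM in controls. The groups overlapped, with 5 of 6 DKO libraries below the control mean, and the log2 fold change of −0.34 ± 0.14 did not pass (edgeR, unadjusted p = 0.028, adjusted p = 0.29). Gins1 rests on few reads, 99 to 203 counts in a library labelled day 7. Cdc45, its partner at the fork, averaged 12.9 ± 3.2 CPM in DKO and 14.9 ± 3.1 CPM in controls (−0.22 ± 0.17). The loader Cdc6 was at 6.59 ± 2.5 CPM in DKO and 6.80 ± 2.0 CPM in controls, and Pcna at 58.9 ± 15 CPM in DKO and 61.6 ± 9.3 CPM in controls. In this comparison the pseudogene Pcna-ps2 was close to its parent gene, with a log2 fold change of −0.06 ± 0.16 beside −0.08 ± 0.16 for Pcna. The 2 were further apart for DKO against control at labelled day 1 (0.12 ± 0.11 beside 0.02 ± 0.11). The same held between the labelled ages in DKO (−0.16 ± 0.14 beside −0.03 ± 0.14).

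**Figure D1:**
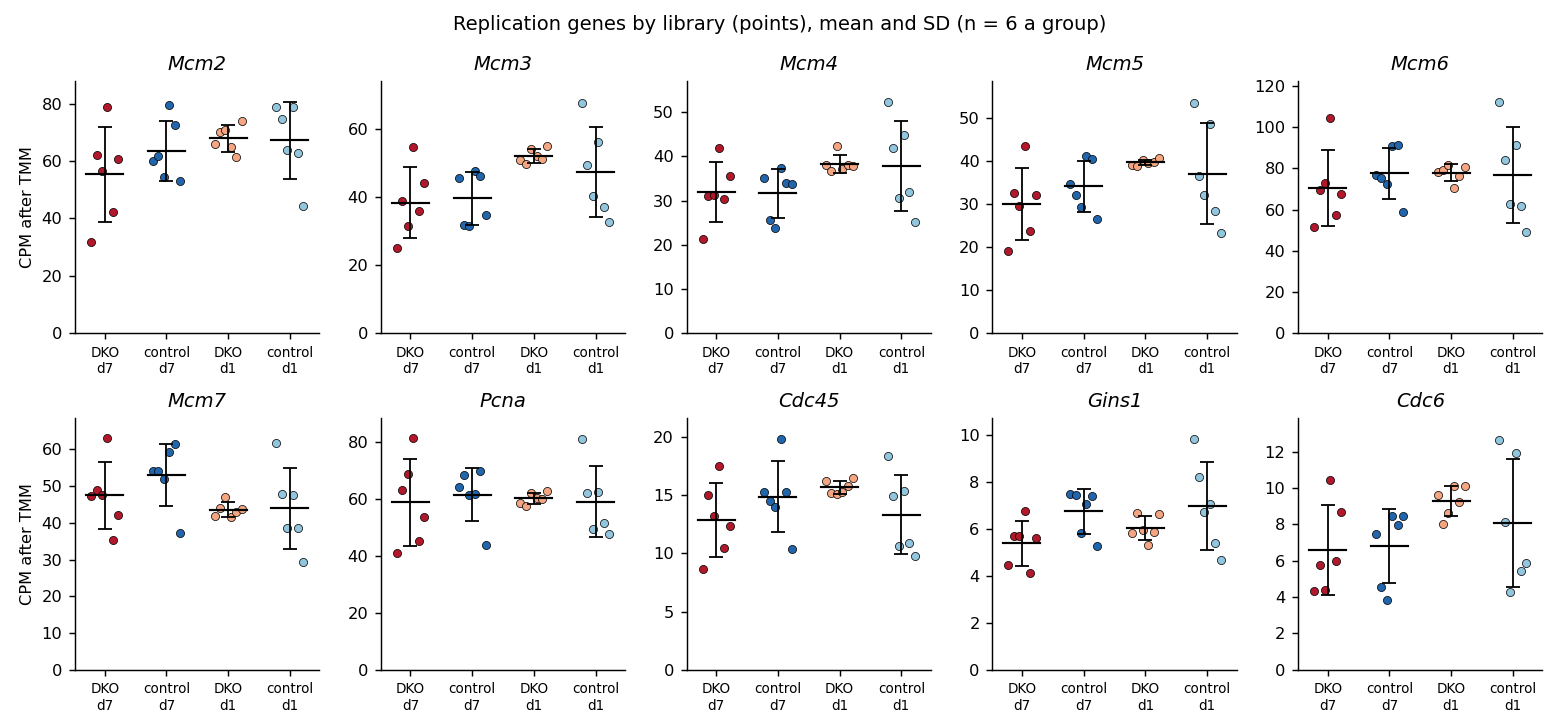
CPM after TMM scaling (vertical axis) of each of the 10 replication genes in the 6 libraries of each group, with the mean and SD. The libraries of DKO labelled day 1 lie close together in every panel, and the other 3 groups have a wider spread. They overlap DKO labelled day 1, except controls labelled day 7 for Mcm3 (highest 47.5 CPM, against a lowest of 49.6 CPM).

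The second comparison is DKO against control at labelled day 1. Of the 10 members, 0 passed, and with edgeR 0 had an unadjusted p under 0.05. DESeq2 and limma-voom called 0 as well. Here the background was larger, with 9.81% of all genes higher and 7.79% lower in DKO. The log2 fold changes ran from −0.21 for Gins1 to 0.23 for Cdc45, with a median of 0.02 beside −0.02 over all genes. On leaving out 1 library the median ran from −0.05 (without control 62) to 0.14 (without control 13), on both sides of 0. All 6 DKO libraries lay above the control mean for Mcm3, Mcm5 and Cdc45 and below it for Gins1, with overlap of the groups in each. The mean levels of the ring subunits lay close together. Mcm2 averaged 67.9 ± 4.6 CPM in DKO and 67.2 ± 13 CPM in controls, Mcm4 38.3 ± 2.0 CPM in DKO and 37.8 ± 10 CPM in controls, Mcm6 77.9 ± 4.1 CPM in DKO and 77.0 ± 23 CPM in controls, and Mcm7 43.6 ± 2.0 CPM in DKO and 43.9 ± 11 CPM in controls. Cdc45 was highest in relative terms, at 15.7 ± 0.59 CPM in DKO and 13.3 ± 3.4 CPM in controls (0.23 ± 0.13, edgeR adjusted p = 0.27). Cdc6 averaged 9.30 ± 0.84 CPM in DKO and 8.06 ± 3.5 CPM in controls, Gins1 6.04 ± 0.52 CPM in DKO and 6.97 ± 1.9 CPM in controls, and Pcna 60.3 ± 2.0 CPM in DKO and 59.1 ± 13 CPM in controls.

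The genotypes differed at labelled day 1 in the spread of the members more than in their means. Mcm5 had 38.9, 39.6 and 40.7 CPM as its lowest, median and highest value in DKO libraries, against 23.2, 34.3 and 53.6 CPM in controls. The whole range of the 6 DKO libraries was 1.05-fold, and that of the controls 2.31-fold. Mcm3 had 49.6, 51.5 and 54.8 CPM in DKO, against 32.6, 44.8 and 67.6 CPM in controls, so controls lay both above and below the DKO libraries. The coefficient of variation (SD as a percentage of the mean) of the members ran from 1.71% (Mcm5) to 9.03% (Cdc6) in DKO and from 19.8% (Mcm2) to 43.7% (Cdc6) in controls. For Mcm5 and Cdc45 the DKO value lay below the 2.76% and 4.39% that counting error alone would give at their mean counts.

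Over the 8278 genes whose mean level lay in the members' range, the median coefficient of variation was 8.38% in DKO and 10.8% in controls labelled day 1. The members' medians were 4.87% in DKO and 27.0% in controls, so the members varied less than the typical gene in DKO and more in controls. At labelled day 7 the members' medians were 26.1% in DKO and 16.9% in controls, against 11.7% over genes of that range in each. Other lists showed the same order of spreads at labelled day 1. The genes that load or unload PCNA or mature the lagging strand summed to 315 ± 7.1 CPM in DKO and 307 ± 53 CPM in controls, those of chromatin assembly at the fork to 183 ± 9.8 CPM in DKO and 181 ± 60 CPM in controls, and those of G2 and M phase to 558 ± 78 CPM in DKO and 555 ± 239 CPM in controls (SD, n = 6 each). The spread was therefore not particular to the members. It was not tested between the genotypes, and the members are not separate observations of it.

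**Figure D2:**
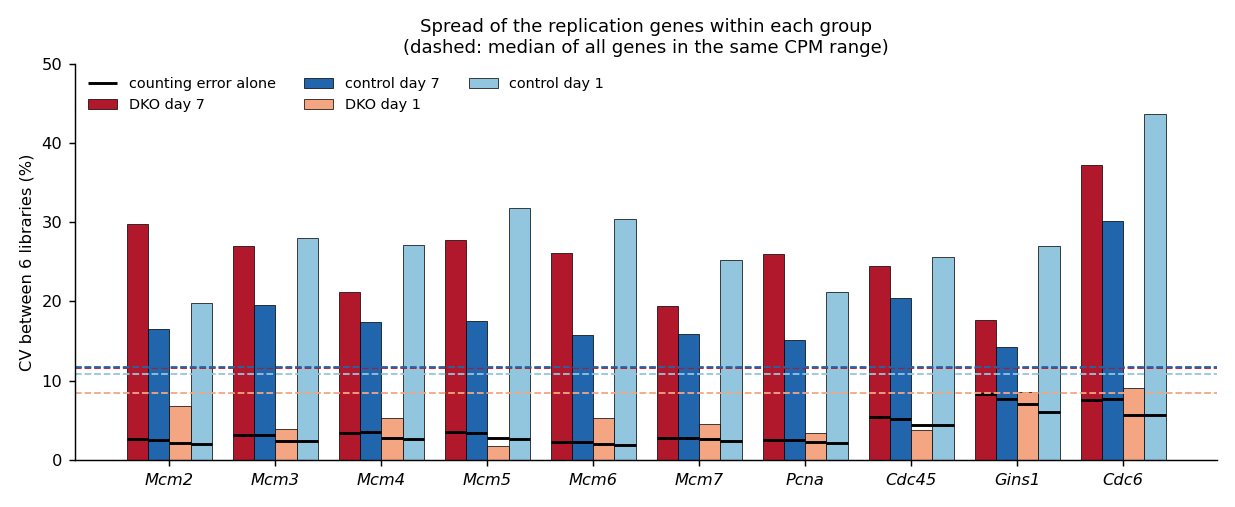
Coefficient of variation between the 6 libraries of a group (percent, bars) for each of the 10 genes, with the value that counting error alone would give (black lines) and the median of all genes in the same CPM range (dashed, in the group's colour). The bars of DKO labelled day 1 end at 1.71 to 9.03%, and those of the other 3 groups at 14.2 to 43.7%.

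The summed level of the 10 genes lay between 397 and 428 CPM in the DKO libraries labelled day 1. Most members ordered the controls of that label alike. Control 13 was highest for 9 of the 10 members and control 62 lowest for 9. The summed level was 548 CPM in control 13, 464 CPM in control 25, 428 CPM in control 14, 339 CPM in control 22, 334 CPM in control 56 and 271 CPM in control 62. Myl7, the atrial myosin light chain, was at 0.56 to 17.3 CPM in the DKO libraries. It was at 304, 186 and 112 CPM in controls 13, 25 and 14, and at 1.34, 95.2 and 16.9 CPM in controls 22, 56 and 62, so the 3 controls with the most replication transcripts also had the most Myl7. The 6 atrial markers together summed to 151 to 856 CPM in DKO and 82.2 to 561 CPM in controls, and 2 of 6 were higher and 3 lower in DKO. Without the controls over 50 CPM of Myl7, which leaves controls 22 and 62, 8 members were called higher in DKO and 0 lower, by 0.31 (Pcna) to 0.88 (Cdc6) on the log2 scale, beside 10.0% of all genes higher and 6.79% lower. Mcm2 and Gins1 were the exceptions. Both remaining controls were among the 3 with the least replication transcript, and Mcm7 turned from −0.02 over all 12 libraries to 0.36. Without control 13 alone, Cdc45 was called higher in DKO (0.34 ± 0.11, edgeR adjusted p = 0.044). The part of atrial tissue in these differences was not tested.

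**Figure D3:**
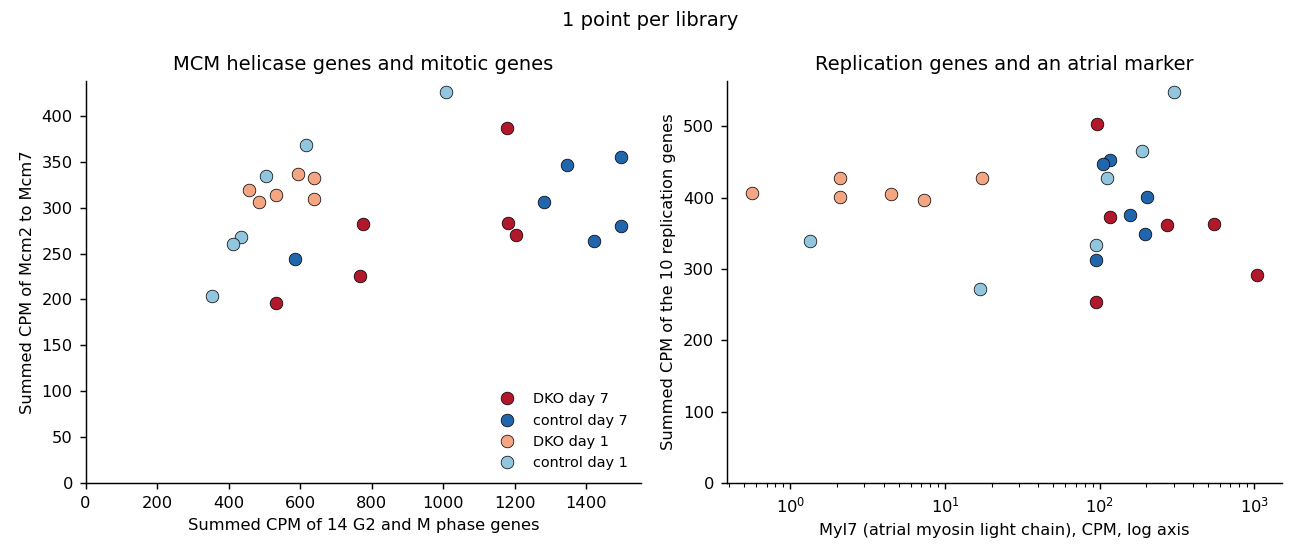
Left, the summed CPM of Mcm2 to Mcm7 (vertical) against the summed CPM of 14 G2 and M phase genes (horizontal), and right, the summed CPM of the 10 replication genes against Myl7 on a log axis, with 1 point per library. Libraries labelled day 7 lie to the right of those labelled day 1 at a like height in the left panel, with overlap, and in the right panel the controls labelled day 1 run from 271 to 548 CPM.

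The labelled ages were compared within each genotype. Pseudogenes took 5.87 to 6.32% of counts in DKO and 4.88 to 6.11% in controls labelled day 7. At labelled day 1 they took 8.90 to 10.3% in DKO and 7.37 to 9.04% in controls. The labelled ages did not overlap in this share of pseudogenes, and its part in the comparisons was not tested. In DKO ventricles 1 of 10 members was called, Mcm3, which was lower at labelled day 7, beside 27.3% of all genes higher and 25.3% lower. Its lowest, median and highest values were 24.9, 37.3 and 54.7 CPM in DKO labelled day 7, against 49.6, 51.5 and 54.8 CPM in DKO labelled day 1. The groups overlapped, since DKO m1092 lay with the libraries labelled day 1 and the other 5 lay below all of them, and the log2 fold change was −0.44 ± 0.17 (edgeR adjusted p = 0.031). Mcm5, at −0.40 ± 0.18, had an unadjusted p of 0.036 and an adjusted p of 0.065 with edgeR, and was called lower with DESeq2 and limma-voom. It had 19.1, 30.8 and 43.4 CPM in DKO labelled day 7, against 38.9, 39.6 and 40.7 CPM in DKO labelled day 1. Under every scaling tried, 9 of the 10 log2 fold changes were below 0, with a median of −0.28 beside 0.02 over all genes and of −0.17 without DKO m1026. Mcm7 was at 0.12 ± 0.14, and at −0.20 among libraries with Eif2s3y over 10 CPM. These calls turned on single libraries. Leaving out DKO m1092 gave 5 members lower (Mcm2, Mcm3, Mcm5, Cdc45 and Cdc6), while leaving out DKO m1026, m1067, m1124, 35 or 79 gave 0, as did leaving out the 2 DKO libraries over 500 CPM of Myl7 (m1124 and m1128). The count was also 0 without the filter on low counts and among libraries with Eif2s3y, which in DKO labelled day 7 are m1124 and m1128 alone.

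In control ventricles 0 of 10 members were called between the labelled ages with edgeR, DESeq2 or limma-voom, with 0 at an unadjusted p under 0.05 in edgeR. The background was 27.4% of all genes higher and 25.6% lower at labelled day 7. The members varied more between control libraries than genes at their level did. Their median coefficient of variation was 16.9% against 11.7% at labelled day 7, and 27.0% against 10.8% at labelled day 1. The low count therefore does not show that the members were steadier between the labelled ages than other genes. The log2 fold changes ran from −0.26 (Mcm4) to 0.27 (Mcm7), with a median of −0.07 beside 0.01 over all genes. On leaving out 1 library it ran from −0.16 (without control 62) to 0.02 (without control 13). Mcm7 had 37.3, 54.1 and 61.4 CPM in controls labelled day 7, against 29.2, 43.2 and 61.7 CPM in controls labelled day 1. The groups overlapped, with 5 of 6 libraries labelled day 7 above the mean of labelled day 1 (0.27 ± 0.14, edgeR adjusted p = 0.11), and Mcm7 was called higher without control 13 (0.37) and without control m1101 (0.35). Mcm4 was called lower without control 62 (−0.35). Mcm3 was at 39.5 ± 7.7 CPM in controls labelled day 7 and 47.2 ± 13 CPM in controls labelled day 1, a log2 fold change of −0.26 ± 0.17 beside the −0.44 of the DKO libraries.

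The difference of the DKO effect between the labelled ages was tested as an interaction over all 24 libraries. It passed for 0 of 10 members, with 0 at an unadjusted p under 0.05 in edgeR and 0 calls with DESeq2 and limma-voom, beside 0.311% of all genes higher and 0.766% lower. The largest was Cdc45, at −0.44 ± 0.23 (edgeR adjusted p = 0.48), and that of Mcm3 was −0.19 ± 0.24 (adjusted p = 0.85). The call of Mcm3 in DKO and its absence in controls therefore do not show a difference between the genotypes. All 10 values were below 0 under every scaling tried, with a median of −0.17 beside 0.01 over all genes, and Mcm4 was close to 0 at −0.01. The median was −0.31 without DKO m1092, −0.29 without control 13, −0.09 without DKO m1026 and −0.08 without control 62, and Mcm4 was at up to 0.08 without 1 library.

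**Figure D4:**
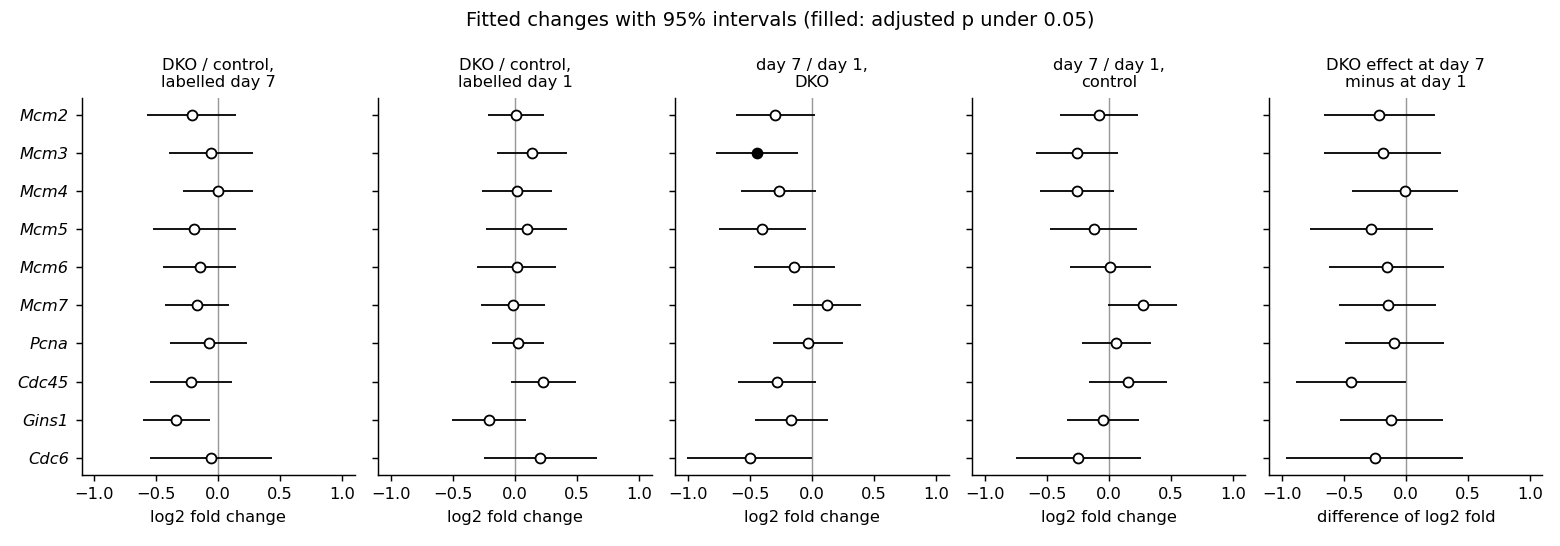
Fitted log2 fold change (points) and 95% interval (lines) of each of the 10 genes in 5 comparisons, on 1 common horizontal scale. The filled point is Mcm3 between the labelled ages in DKO (−0.44, edgeR adjusted p = 0.031), and the open points did not pass.

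Levels between genes were compared as CPM per kilobase of GENCODE M21 exon sequence, a scale that depends on that annotation. In all 24 libraries Pcna was highest, then Mcm6, and Cdc6 lowest. Pcna averaged 24.6 ± 6.4 in DKO and 25.7 ± 3.9 in controls labelled day 7, and 25.1 ± 0.84 in DKO and 24.6 ± 5.2 in controls labelled day 1. Cdc6 averaged 1.26 ± 0.47 in DKO and 1.30 ± 0.39 in controls labelled day 7, and 1.78 ± 0.16 in DKO and 1.54 ± 0.67 in controls labelled day 1. Neighbours in the middle of the order changed places between libraries: Mcm3 was above Mcm7 in 16 of 24, Mcm7 above Mcm4 in 10, Mcm4 above Mcm2 in 16 and Mcm2 above Mcm5 in 17. Every ring subunit lay above Cdc45, Gins1 and Cdc6 in group means. Gins1 and Cdc45 could not be ordered, with Gins1 above Cdc45 in 13 of 24 libraries.

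The rings hold 1 copy of each subunit, so the make-up of the 6 Mcm transcripts was followed as the share of each in their summed CPM. Mcm6 gave 25.8 ± 1.3% in DKO and 25.9 ± 1.3% in controls labelled day 7, and 24.4 ± 0.72% in DKO and 24.6 ± 1.1% in controls labelled day 1. Mcm7 had a larger share at labelled day 7, with 17.7 ± 3.4% in DKO and 17.7 ± 1.6% in controls, against 13.6 ± 0.32% in DKO and 14.2 ± 0.64% in controls labelled day 1. Its lowest share at labelled day 7 was 14.95% and its highest at labelled day 1 was 14.8%, so the labelled ages did not overlap in this share. Mcm3 had the opposite order, with 14.0 ± 1.6% in DKO and 13.2 ± 1.4% in controls labelled day 7, against 16.3 ± 0.48% in DKO and 15.2 ± 0.70% in controls labelled day 1, with overlap. DKO m1026 gave the highest share of Mcm7, 24.2%. The part of reads from the genes that overlap Mcm7 was not tested. Shares add to a whole, so a rise of one lowers the others.

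The members varied together across libraries. Over all 24 libraries the Pearson r between pairs of members had a median of 0.77, from 0.21 for Mcm7 and Cdc6 to 0.94 for Mcm3 and Mcm4 (45 pairs, log2 CPM). With group means subtracted, the median was 0.83, from 0.41 for the same pair to 0.96 for Mcm5 and Mcm6. These values describe libraries that share depth, scaling and tissue composition, and carry no test. Among the genes most like the mean of the members over 24 libraries were Prim1 (r = 0.96), which codes for the catalytic subunit of primase, Dtl (0.91), an adaptor of the ubiquitin ligase that destroys Cdt1, Slfn9 (0.91), Atad2 (0.90), and Pole (0.90), the catalytic subunit of polymerase epsilon. With group means subtracted they were Prim1 (0.96), Jpt2 (0.93), Dnmt1 (0.93), the maintenance DNA methyltransferase, Fignl1 (0.93), Slfn9 (0.93) and Pole (0.93).

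The other genes of the pathway were read in lists named by role. Of 119 tested genes in 12 lists, 1 was higher and 0 lower in DKO at labelled day 7, beside 0.686% of all genes higher and 0.334% lower, with 2 higher and 6 lower at an unadjusted p under 0.05 (edgeR). The call was Ccnd2, the cyclin D2 gene that drives entry into S phase, at 296 ± 31 CPM in DKO and 221 ± 15 CPM in controls (0.41 ± 0.07, edgeR adjusted p = 0.0099), with no overlap. Leaving out the 2 DKO libraries over 500 CPM of Myl7, which are also the 2 with Eif2s3y, ended this call. At labelled day 1, 2 of the 119 were higher and 6 lower, which is no more than the background of 9.81% higher and 7.79% lower. Ccnd2 was again higher, at 490 ± 38 CPM in DKO and 348 ± 23 CPM in controls (0.49 ± 0.06), with no overlap, and so was Cdkn1a, which codes for the CDK inhibitor p21 (0.52 ± 0.10). Lower in DKO were Mcmbp, an MCM binding protein (−0.25 ± 0.07), Rpa1, the large subunit of the single-strand binding protein RPA (−0.18 ± 0.06), Dut, which removes dUTP (−0.24 ± 0.06), Rb1, the retinoblastoma gene (−0.34 ± 0.09), the CDK inhibitor gene Cdkn1b (−0.31 ± 0.07) and the meiotic paralogue Mcmdc2 (−0.44 ± 0.11). Without the controls over 50 CPM of Myl7, the 11 lists other than G2 and M phase had 30 genes higher and 3 lower in place of 2 and 6. The interaction passed for 0 of 119 with edgeR, with 3 higher and 1 lower at an unadjusted p under 0.05, and for 0 genes of the 11 lists other than G2 and M phase with DESeq2 and limma-voom.

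Between the labelled ages, 43 of the 119 were higher and 15 lower at labelled day 7 in DKO, beside 27.3% of all genes higher and 25.3% lower. In controls 49 were higher and 13 lower, beside 27.4% and 25.6% of all genes. Without the 14 G2 and M phase genes, 32 were higher in DKO and 35 in controls, so the higher calls of the other lists were near the background. Closest to the members in role, 3 of 17 genes of helicase activation and fork protection were higher and 1 lower in DKO, and 3 were higher and 2 lower in controls. Dbf4, the activator of the Cdc7 kinase that fires licensed origins, averaged 12.6 ± 3.8 CPM in DKO labelled day 7 and 4.52 ± 0.76 CPM in DKO labelled day 1 (1.47 ± 0.23), and 14.6 ± 4.4 CPM in controls labelled day 7 and 4.45 ± 1.5 CPM in controls labelled day 1 (1.72 ± 0.23). Its groups did not overlap in either genotype. Ticrr, which brings Cdc45 to the ring, was higher by 0.74 ± 0.29 in DKO and 1.30 ± 0.29 in controls, and Donson by 0.82 ± 0.18 in DKO and 0.57 ± 0.18 in controls.

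Of 8 tested genes of origin recognition and MCM loading, 3 were higher in DKO (Orc3 by 0.16, Orc5 by 0.23 and Mcmbp by 0.20) and 0 were called in controls, where 3 were higher at an unadjusted p under 0.05 with edgeR. Of 12 polymerase and primase genes, 1 was higher and 3 lower in DKO, and 1 was higher and 2 lower in controls. Pold2, a subunit of polymerase delta, was higher by 0.41 in DKO and 0.60 in controls. Pola1, the catalytic subunit of polymerase alpha, was at −0.42 in DKO and −0.43 in controls, and Prim2 at −0.37 in DKO and −0.30 in controls. Of 14 genes that load or unload PCNA or mature the lagging strand, 1 was higher and 1 lower in DKO, and 2 were higher and 0 lower in controls, where 4 were higher and 1 lower at an unadjusted p under 0.05 with edgeR. Chtf18, which helps to load PCNA, was higher by 0.93 in DKO and 1.21 in controls. Of 7 genes of chromatin assembly at the fork, 1 was higher and 1 lower in DKO, and 2 were higher and 1 lower in controls. Chaf1a, the large subunit of the histone chaperone CAF-1, was higher by 0.81 in DKO and 1.12 in controls, and Hells was at −0.59 in DKO and −0.50 in controls.

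Of 7 genes listed under the degradation of licensing factors, some of which may act against it, 5 were higher in each genotype and 0 lower. At an unadjusted p under 0.05 with edgeR, 5 were higher in DKO and 6 in controls, and 0 were lower in each. Fzr1, an activator of the anaphase-promoting complex, averaged 103 ± 12 CPM in DKO labelled day 7 and 21.2 ± 7.0 CPM in DKO labelled day 1, and 116 ± 16 CPM in controls labelled day 7 and 18.5 ± 5.5 CPM in controls labelled day 1. Neither genotype's labelled ages overlapped for this gene. Of 6 CDK inhibitor genes, 4 were higher and 1 lower in DKO, and 4 were higher and 0 lower in controls, where 4 were higher and 1 lower at an unadjusted p under 0.05 with edgeR. Cdkn1c, which codes for p57, had the largest of these changes, 3.92 ± 0.37 in DKO and 3.23 ± 0.36 in controls. Of 13 genes of the E2F and RB families, 7 were higher and 1 lower in DKO, and 8 were higher and 2 lower in controls. Tfdp2, a partner of E2F, was higher by 0.99 in each genotype. Of 10 cyclins and kinases of G1 and S phase, 5 were higher and 4 lower in DKO, and 6 were higher and 3 lower in controls. Ccna2, cyclin A2, was higher by 0.86 in DKO and 1.28 in controls, while Ccnd2 was at −0.73 in DKO and −0.66 in controls. Of 8 genes of deoxynucleotide supply, 1 was higher and 3 lower in DKO, and 3 were higher and 3 lower in controls, with Rrm2, a subunit of ribonucleotide reductase, higher by 0.75 in controls. Of 3 MCM paralogues outside the ring, Mcm9 was higher, by 0.44 in DKO and 0.63 in controls.

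**Figure D5:**
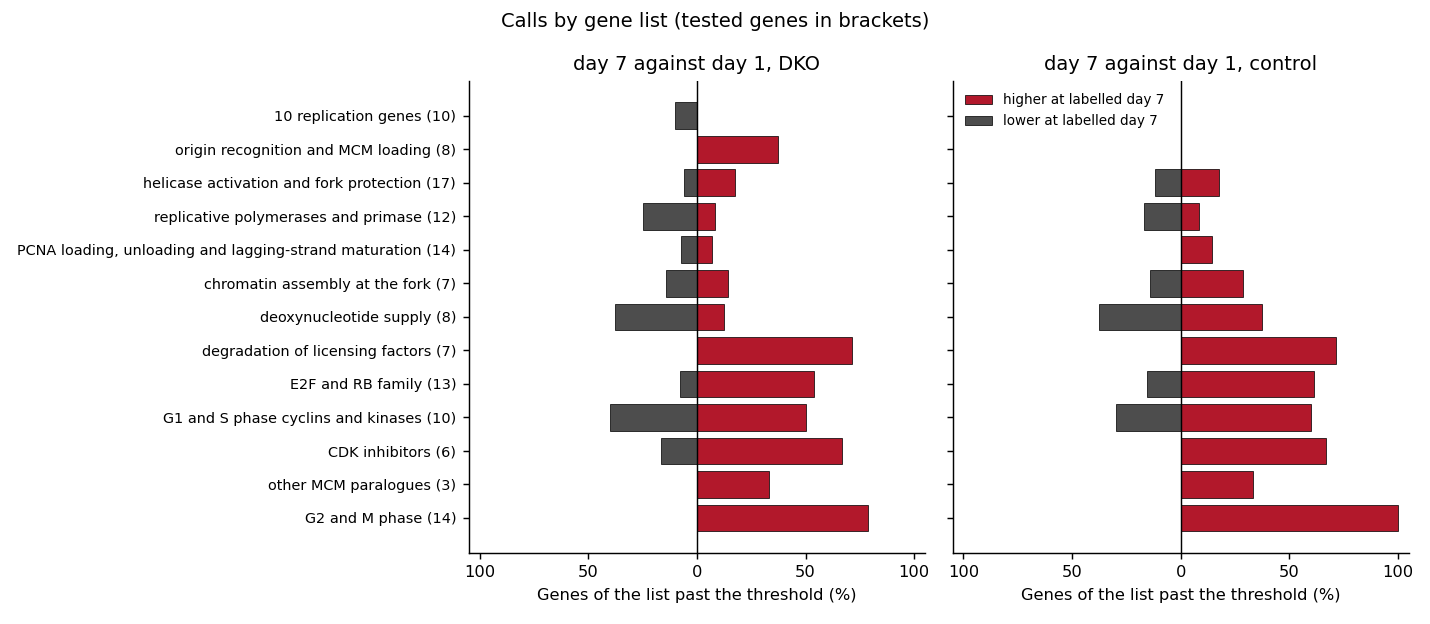
Share of the tested genes of each list (percent) that were called higher (red, to the right) or lower (grey, to the left) at labelled day 7, in DKO (left panel) and controls (right panel). The 10 replication genes have 1 lower call in DKO and none in controls, and the 14 G2 and M phase genes have 11 higher calls in DKO and 14 in controls.

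Genes of G2 and M phase, which act after replication, were read beside the members. Of 14, 11 were higher at labelled day 7 in DKO and 14 in controls, beside 27.3% of all genes in DKO and 27.4% in controls. Ccnb1, cyclin B1, averaged 135 ± 46 CPM in DKO labelled day 7 and 61.4 ± 12 CPM in DKO labelled day 1, and 182 ± 49 CPM in controls labelled day 7 and 57.9 ± 26 CPM in controls labelled day 1. Plk1, a kinase of mitosis, was higher by 1.07 ± 0.29 in DKO and 1.64 ± 0.30 in controls. The 14 genes summed to a median of 978 CPM in DKO and 1384 CPM in controls labelled day 7, against 564 CPM in DKO and 470 CPM in controls labelled day 1. The 6 Mcm genes summed to a median of 276 CPM in DKO and 293 CPM in controls labelled day 7, against 316 CPM in DKO and 301 CPM in controls labelled day 1. The ratio of the 2 sums was 0.22 to 0.37 in DKO and 0.19 to 0.42 in controls labelled day 7, against 0.48 to 0.70 in DKO and 0.42 to 0.66 in controls labelled day 1. The labelled ages did not overlap in this ratio within either genotype, and the 2 control ranges nearly met. The upper end at labelled day 7 was control m1101 alone, with a G2 and M phase sum of 586 CPM against 1284 to 1497 CPM in the other 5 controls, whose ratios were 0.19 to 0.26. Among libraries with Eif2s3y over 10 CPM, 2 libraries of each genotype remain at labelled day 7, DKO m1124 and m1128 and controls m1091 and m1101. Of the 14, 2 were then called in DKO and 5 in controls. Control m1101 is the library with the low sum just named. Without DKO m1046, 7 were called in DKO.

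Markers of other cell types also moved with the labelled age. Fibroblast markers (8 genes) summed to 3537 to 4421 CPM in DKO and 2339 to 4312 CPM in controls labelled day 7, against 5838 to 6940 CPM in DKO and 5339 to 6924 CPM in controls labelled day 1, and 7 of 8 were lower in DKO and 8 of 8 in controls. Endothelial markers (8 genes) summed to 945 to 1106 CPM in DKO and 835 to 1028 CPM in controls labelled day 7, against 1377 to 1481 CPM in DKO and 1215 to 1463 CPM in controls labelled day 1, with 6 of 8 lower in DKO and 7 of 8 in controls. Smooth muscle and pericyte markers (6 genes) summed to 417 to 521 CPM in DKO and 381 to 458 CPM in controls labelled day 7, against 1265 to 1630 CPM in DKO and 902 to 1574 CPM in controls labelled day 1, with 5 of 6 lower and 1 higher in each genotype. Macrophage markers (8 genes) summed to 73.6 to 111 CPM in DKO and 63.0 to 80.2 CPM in controls labelled day 7, against 77.7 to 109 CPM in DKO and 83.2 to 116 CPM in controls labelled day 1, with 3 of 8 lower and 1 higher in DKO, and 7 of 8 lower and 0 higher in controls, where 1 was higher at an unadjusted p under 0.05 with edgeR. Among erythroid markers, 6 of 9 tested, Alas2 was at 0 in every library, and 5 of the 6 were lower in DKO and 4 in controls. Of 6 epicardial markers, 2 were higher and 2 lower in DKO, and 1 was higher and 2 lower in controls. The part of these cell types in the levels of the replication genes was not tested.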

How the data were processed

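The measured values were raw read counts per gene for 24 left ventricle libraries, deposited by the authors as a table with no normalization. Per the labels' protocols the kit was NEBNext Single Cell/Low Input, which does not mark strand, so reads of overlapping genes on opposite strands cannot be told apart. The submitters' processing notes name bcl2fastq, STAR 2.4.2a and GRCm39, and the counter and gene annotation are not given in the sources used here. Counts were scaled by TMM and tested with edgeR 4.0.16 (quasi-likelihood, robust) in R 4.3.3, after a filter at a minimum count of 10. Genotype was tested within a labelled age on 12 libraries, and labelled age and the interaction on all 24. P-values were adjusted over the 17352 genes tested, with a threshold of 0.05. Intervals are at 95% and use the normal distribution, so they are somewhat narrower than the edgeR test would give. The p-values rest on the spread between libraries, whose depth was 17334498 to 45806171 counts. Limma 3.58.1 (voom), DESeq2 1.42.0, other scalings, filters and sets of libraries served as alternatives.

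The members and lists were chosen with earlier results of these data known. Named genes were all 10 members, up to 3 genes per list and comparison with the largest called change, and the 6 genes most like the members by each measure of likeness, of which 1 is not reported here. Exon lengths and overlaps came from GENCODE M21 on GRCm38, matched by gene identifier, and promoters from RefSeq on GRCm38.p6, matched by symbol. No promoter or exon coordinate was moved between builds.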

Additional observations from a re-analysis of the deposited data

Results flagged for a closer look

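Of 40 groups of 6 libraries (10 members in 4 groups), 2 held a library whose gap to its nearest neighbour took more of the group's range than Dixon's 95% critical value allows. For Mcm4 in DKO labelled day 1, library 35 had 42.3 CPM, and the other libraries had 36.7 to 38.1 CPM. For Pcna in controls labelled day 7, library m1101 had 44.0 CPM, and the other libraries had 61.4 to 69.8 CPM. Chance passes this mark in about 5% of groups, or about 2 of 40.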

How the results depend on the processing

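Of the members' single fold changes, all 200 recomputed values of DKO against control at labelled day 7 and all 310 of the interaction stayed on their side of the threshold. At labelled day 1, 181 of 190 did, 8 passed newly, and Mcm7 reversed to 0.36 without the controls over 50 CPM of Myl7. Between the labelled ages, 174 of 190 did in DKO and 177 of 180 in controls.

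The count of members called between the labelled ages in DKO, 1 of 10, was 2 with DESeq2, limma-voom, upper-quartile scaling and protein-coding genes alone. It was 0 with no filter on low counts, with only libraries with Eif2s3y, and without the 2 libraries over 500 CPM of Myl7, and 0 to 5 on leaving out 1 library. In controls it was 0 to 1 on leaving out 1 library, as it was for DKO against control at labelled day 1, where leaving out the controls over 50 CPM of Myl7 gave 8. The G2 and M phase count in DKO, 11 of 14, was 2 with only libraries with Eif2s3y and 7 to 13 on leaving out 1 library, and in controls it was 5 with only libraries with Eif2s3y, against 14.

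Over all genes, 177 were called at labelled day 7, and 514 with DESeq2, 419 with all 24 libraries in 1 fit, 77 without libraries over 500 CPM of Myl7, and 104 to 302 on leaving out 1 library. The interaction had 187, and 364 with DESeq2, 114 with no filter, 49 with protein-coding genes alone, 49 without libraries over 500 CPM of Myl7, and 90 to 287 on leaving out 1 library. Fewer libraries or more genes tested change these counts by construction, and for the rest the cause was not tested. The threshold of 500 CPM and the G2 and M phase alternatives were chosen after seeing the data. For the counts of the other pathway lists, the effect of leaving out single libraries is not reported here. No paired analysis was possible because no library name is shared between groups. Gins1 and Cdc6 are limited by depth, with 99 to 486 counts in a library.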
